A study of Mus musculus with 7 samples.

Results

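The genes described here are nuclear-encoded genes of complexes II to V of mitochondrial oxidative phosphorylation. They are genes of structural subunits, together with the supercomplex factor Cox7a2l and the coupling factor B homolog Atp5s. They were chosen from a table of 22248 genes by symbol (Sdha to Sdhd, Cyc1, and symbols beginning Uqcr, Cox4 to Cox8 or Atp5) and by a mean count of 10 or more over 7 libraries. Of 49 matching entries, 47 genes were kept: 4 of complex II, 9 of complex III, 17 of complex IV and 17 of complex V. The entries just under the minimum were Cox8c, with no counts, and a duplicate entry of Atp5o with a mean of 0.34 counts. The genes just above it were Cox7b2 with a mean of 12.1 counts, Cox4i2 with 13.1 and Cox7a1 with 22.6.

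RNA was sequenced from hippocampal synaptoneurosomes, a fraction of pinched-off nerve endings and the postsynaptic parts attached to them. The mice were wild-type C57Bl/6J females that had received either AM6545 or vehicle sub-chronically. AM6545 is an antagonist of the CB1 cannabinoid receptor that enters the brain poorly. There were 4 AM6545 libraries (replicates B, D, E and F) and 3 Vehicle libraries (replicates B, D and E). The sources used here do not give the age of the mice, how many were pooled per library, or how much AM6545 was given and for how long. The labels do not say that the replicates were separate mice, so p-values measure the spread between these libraries, which may be technical.

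Oxidative phosphorylation passes electrons from food molecules along protein complexes in the inner mitochondrial membrane and uses the proton gradient this builds to make ATP. Complex II (succinate dehydrogenase) feeds electrons from the citrate cycle to ubiquinone, complex III passes them to cytochrome c, complex IV (cytochrome c oxidase) hands them to oxygen, and complex V (ATP synthase) uses the returning protons to make ATP. Complex II is encoded wholly in the nucleus, while complexes III, IV and V also hold subunits encoded in mitochondrial DNA. In nerve endings, mitochondria supply much of the ATP that vesicle cycling and ion pumping consume.

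Several of these genes carry, in front of their RefSeq start sites, binding motifs of factors known to act on respiratory genes. Below, 5 stretches are shown because they hold such motifs in a gene from each complex. They come from RefSeq on build GRCm38.p6, are written in the gene's own direction, lie on the minus strand in each case and end before or within the first bases of the annotated first exon. In GENCODE M21 the Atp5k gene begins at chr5:108434448, so that most of its motif lies within that exon. Capitals mark the motif: CCGGAAG, bound by ETS factors such as GABP, or its reverse complement, in Uqcr11 (chr10:80406856-80406912) and Atp5e (chr2:174464172-174464228), and the NRF1 motif (GCGCA, any base, GCGC) in Cox6a1 (chr5:115349041-115349145), Atp5k (chr5:108434440-108434474) and Sdha (chr13:74350281-74350363).
Uqcr11: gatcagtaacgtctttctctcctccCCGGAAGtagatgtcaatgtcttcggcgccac
Atp5e: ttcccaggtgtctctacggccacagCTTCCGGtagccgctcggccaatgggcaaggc
Cox6a1: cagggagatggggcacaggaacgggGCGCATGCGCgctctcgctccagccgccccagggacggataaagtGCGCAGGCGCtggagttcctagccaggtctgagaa
Atp5k: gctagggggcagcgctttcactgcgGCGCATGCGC
Sdha: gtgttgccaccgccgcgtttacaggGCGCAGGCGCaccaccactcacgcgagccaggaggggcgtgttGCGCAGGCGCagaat

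The motif nearest to the RefSeq start site began 66 bases before it in Uqcr11, 102 in Atp5e, 117 in Cox6a1, 50 in Atp5k and 55 in Sdha among the motifs shown. A RefSeq window from 250 bases before to 50 bases after the start was at hand for 36 of the 47 genes and for 27025 genes in all. Searched on both strands, the NRF1 motif was in the windows of 10 of the 36 genes (27.8%) and of 5.19% of all genes. The ETS motif was in 12 of the 36 (33.3%) against 9.93% of all genes. The YY1 motif AAGATGGCG was in 2 (5.56%) against 1.64%, and the ERR motif AAGGTCA was in 5 (13.9%) against 5.38%. At least 1 of the 4 motifs was in 19 of the 36 genes (52.8%) and in 19.9% of all genes. Among the 21 of these 36 genes that were lower in AM6545 at an unadjusted p under 0.05, the ETS motif was in 10 (47.6%) and the NRF1 motif in 5 (23.8%), and among the other 15 genes they were in 2 (13.3%) and 5 (33.3%). These shares were not tested, and a motif match is a description of the letters in this window.

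The libraries held between 19174649 and 25894733 estimated counts. Vehicle replicate B stood apart, with 9.83% of its counts from mitochondrially encoded genes against 5.07% to 6.66% in the other 6 libraries, and it was the highest library for 35 of the 47 genes. Neuronal markers were abundant in every library, with a summed level of 6877 to 7549 CPM (counts per 1000000, scaled between libraries by TMM), and oligodendrocyte markers summed to 16330 to 22227 CPM. In the gene table, the entry for Cox6a1 held only the counts of Cox6a1-202, a retained-intron transcript in GENCODE M21. The coding transcript Cox6a1-201, with 99.3% of the gene's transcript counts in AM6545 and 99.1% in Vehicle, was not in that entry. For the other 46 genes the table's counts and the sum of the transcripts differed by less than 1%.

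Compared per unit of transcript length, complex IV genes had the highest summed level in the Vehicle libraries and complex II genes the lowest. In TPM (transcripts per 1000000), computed from the transcript table with M21 lengths, the Vehicle means summed to 12042 TPM over complex IV, 9536 TPM over complex V, 4573 TPM over complex III and 1297 TPM over complex II. The AM6545 means summed to 8924 TPM for complex IV, 9169 TPM for complex V, 4306 TPM for complex III and 1387 TPM for complex II. Complex IV held both the highest and the lowest genes. Cox6a1 had 2779 ± 586 TPM (SD, n = 3) in Vehicle, Cox8a 2387 ± 453 TPM and Cox4i1 2069.6 ± 382 TPM, and these neighbours did not differ beyond their spread. The tissue-restricted isoforms of the same complex ranged from 1.80 TPM for Cox4i2 to 17.0 TPM for Cox6a2. Atp5b, the catalytic beta subunit of ATP synthase, led complex V with 2073 ± 612 TPM, and Atp5s, a coupling factor B homolog, was lowest there with 41.5 ± 3.31 TPM. Cyc1 (cytochrome c1) was the highest gene of complex III with 791 ± 25.9 TPM, and Sdhb led complex II with 488 ± 18.1 TPM. Because M21 lengths may differ from those used for counting, these levels order genes only roughly.

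**Figure D1:**
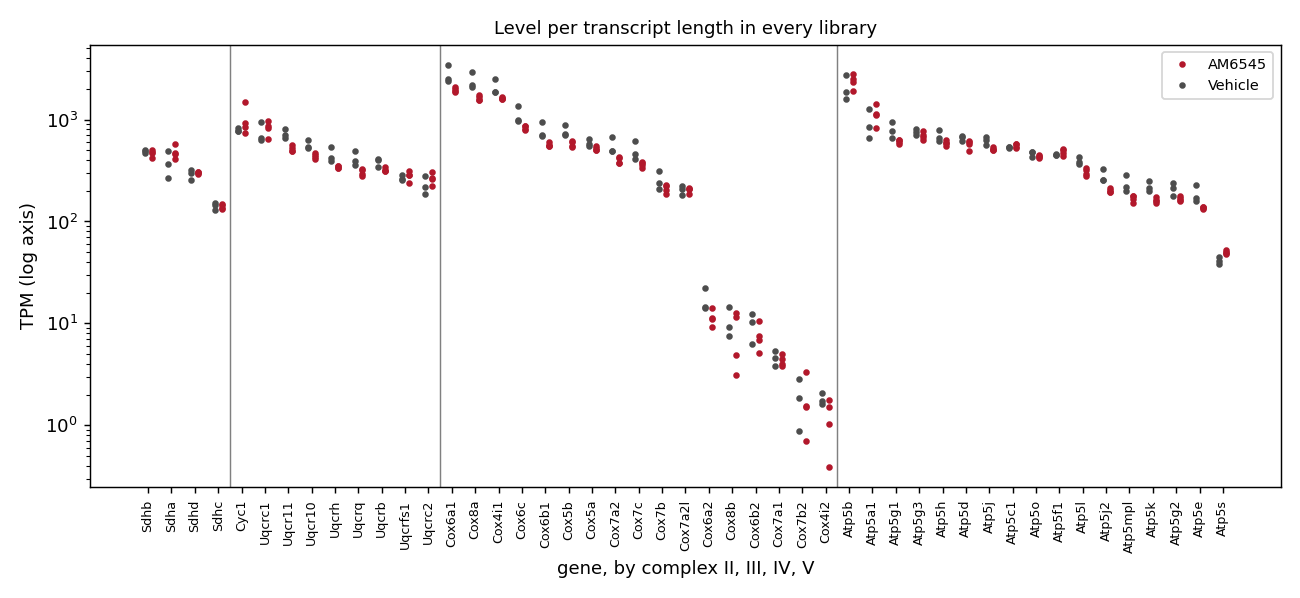
Level of each of the 47 genes in TPM on a log axis, ordered by complex and then by level, with 1 point for each of the 4 AM6545 (red) and 3 Vehicle (grey) libraries. Cox6a1, Cox8a, Cox4i1 and Atp5b lead with means of 2069.6 to 2779 TPM in Vehicle, and the tissue-restricted complex IV isoforms have means between 1.80 and 17.0 TPM.

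In the comparison of AM6545 with Vehicle, no single gene of the 47 passed the test, but the log2 fold changes leaned to lower levels in AM6545, and they did so unequally across the complexes and across subunit roles. By edgeR's quasi-likelihood test, 0 of 47 genes had a Benjamini-Hochberg adjusted p under 0.05, against 0.00682% of all 14654 genes tested. At an unadjusted p under 0.05, 27 of 47 (57.4%) were lower and 0 were higher, where 8.7% of all genes tested were lower and 5.86% higher. DESeq2 called 19 of the 40 genes to which it gave an adjusted p, all lower in AM6545 (2.07% of all genes with an adjusted p), and limma-voom called 18 of 47 (1.79% of all genes), of which 17 were shared. The median log2 fold change was -0.44 over the 47 genes and 0.01 over all genes tested, and 40 of the 47 were below 0, against 48.6% of all genes. All 4 AM6545 libraries lay below all 3 Vehicle libraries for 25 of 47 genes, against 7.19% of all genes, and above them for 1 gene, Atp5s, against 6.62%. Among genes with transcripts under 1000 nt, the AM6545 libraries lay below for 24 of 32 genes of complexes II to V and for 37.1% of all. All 47 genes passed the filter on low counts. In bulk RNA of this kind, fewer cells or mitochondria of a type and less RNA in each cannot be told apart.

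By complex, the median log2 fold change was -0.10 for complex II, -0.39 for III, -0.54 for IV and -0.33 for V. At an unadjusted p under 0.05, lower genes numbered 0 of 4 in complex II, 5 of 9 in III, 11 of 17 in IV and 11 of 17 in V. Of all genes tested 8.7% were lower at that threshold, and of those under 1000 nt 47.2%. The 4 complex II genes were 1142 to 2898 nt long. The difference between complexes was not tested. The 27 genes lower at that threshold all had their highest value in Vehicle replicate B. Without that library, 23 of 47 genes were lower at an unadjusted p under 0.05 (3.69% of all genes) and the median log2 fold change was -0.26. Of all genes under 1000 nt, 25.4% were lower in that setting. The 4 AM6545 libraries then lay below the 2 remaining Vehicle libraries for 26 of 47 genes (55.3%, against 8.62% of all genes). Without Vehicle replicate E, edgeR's quasi-likelihood test called 23 of 47 genes at an adjusted p under 0.05, all lower, along with 6.38% of all genes.

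**Figure D2:**
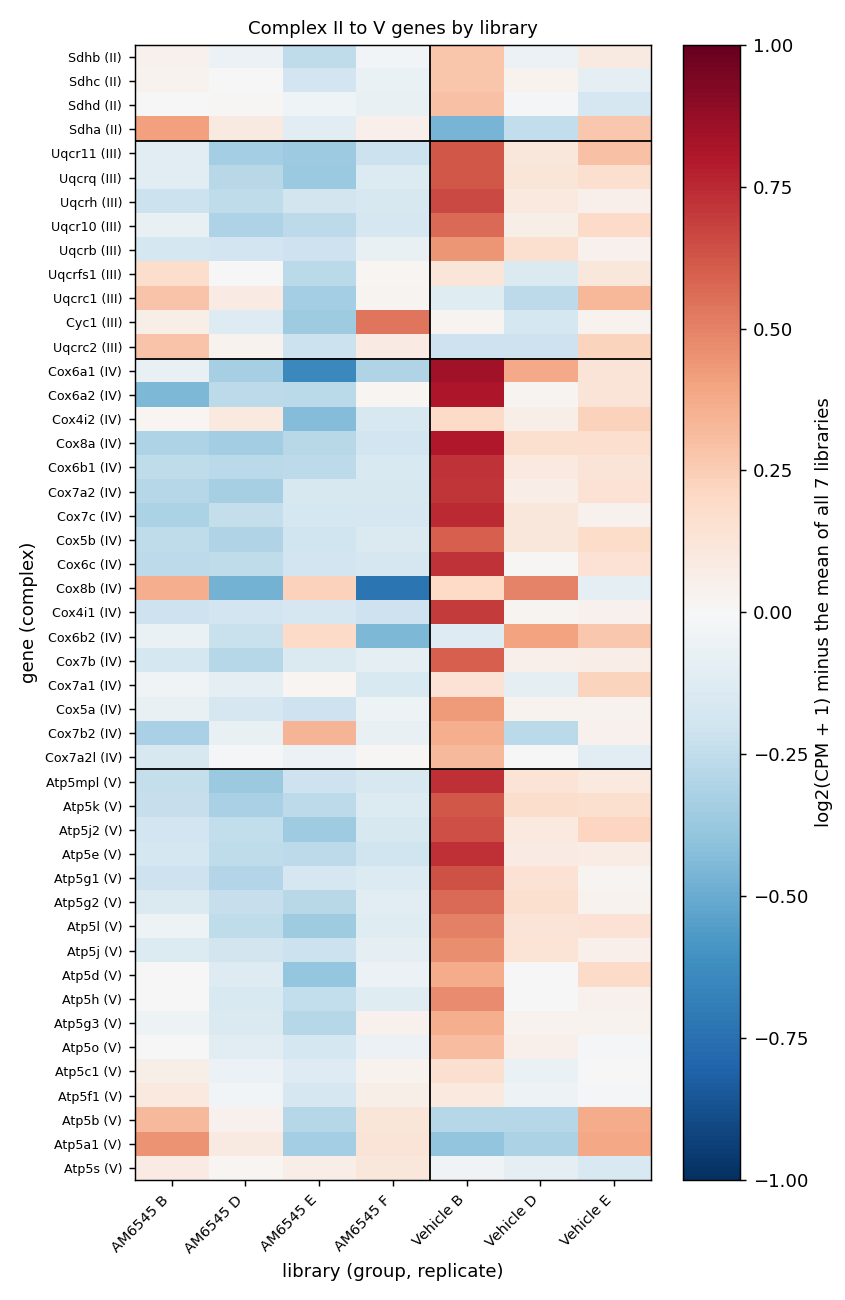
Colour gives the log2(CPM + 1) of each gene minus its mean over the 7 libraries, red for higher and blue for lower, with genes down the side by complex and libraries across. Vehicle replicate B is highest for 35 of 47 genes and AM6545 replicate E is lowest for 24.

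**Figure D3:**
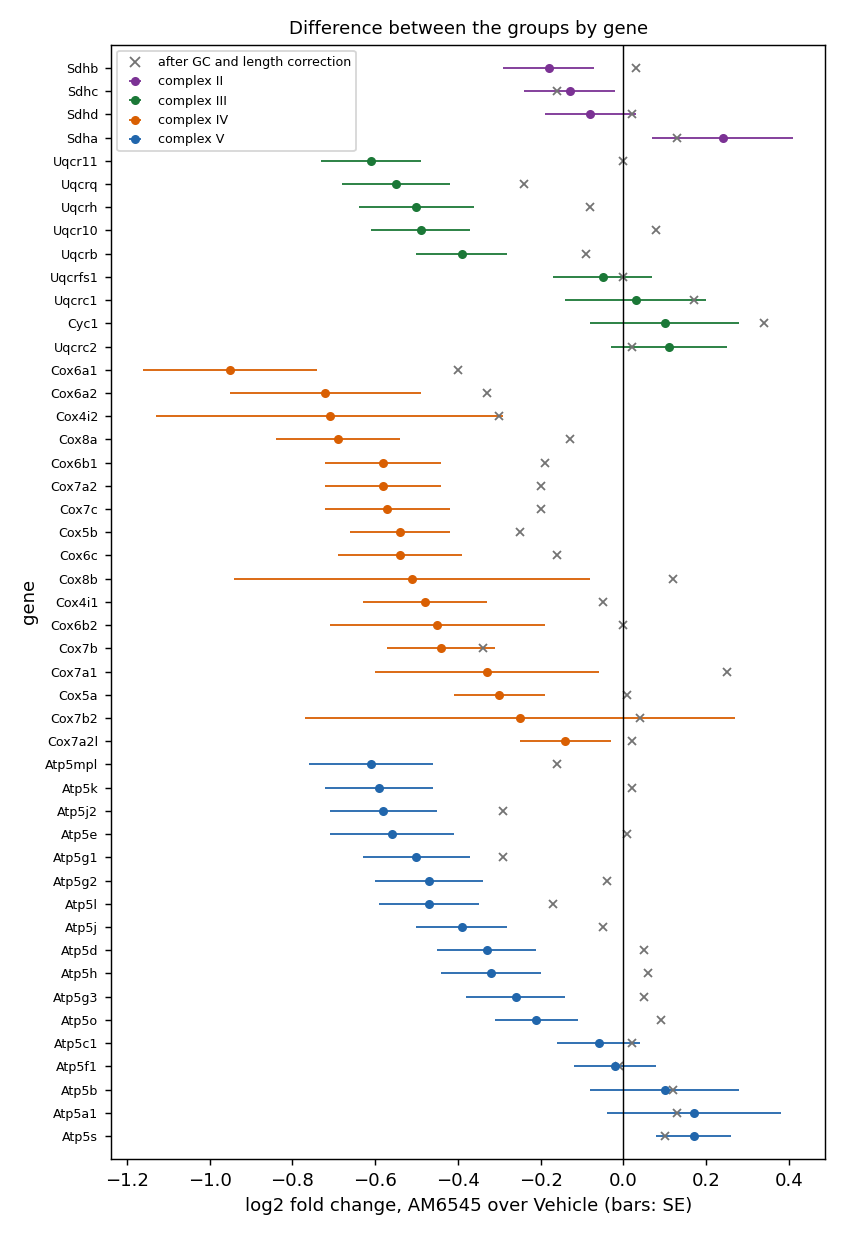
Points give the log2 fold change of AM6545 over Vehicle for each of the 47 genes, coloured by complex, bars its standard error, and crosses the value after the GC and length correction, with Cox6a1 as in its gene-table entry. All 17 complex IV points lie below 0 (11 of 17 crosses do), while the catalytic and core genes of complexes II, III and V lie on both sides of 0.

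Complex II showed no gene past either threshold. Sdha, the flavoprotein that oxidises succinate, had 855, 685, 598 and 669 CPM in AM6545 and 467, 542 and 778 CPM in Vehicle. The groups overlapped, and the log2 fold change was 0.24 (SE 0.17; edgeR adjusted p = 0.528). The value was 0.09 without Vehicle replicate B and 0.48 without Vehicle replicate E, where Sdha was higher at an unadjusted p under 0.05 (edgeR adjusted p = 0.0574). Sdhb, the iron-sulfur subunit, had 294, 274, 239 and 280.1 CPM in AM6545 and 347, 274 and 305 CPM in Vehicle, with a log2 fold change of -0.18 (SE 0.11; edgeR adjusted p = 0.453). The membrane anchor Sdhc had 109, 106, 93.0 and 101 CPM in AM6545 and 129, 108 and 99.2 CPM in Vehicle. The other anchor, Sdhd, had 191, 193, 186 and 182 CPM in AM6545 and 235, 189.9 and 170.2 CPM in Vehicle. Both anchors overlapped between groups, with log2 fold changes of -0.13 (SE 0.11) for Sdhc and -0.08 (SE 0.11) for Sdhd. Without Vehicle replicate B the value for Sdhd was 0.07.

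In complex III, before correction for GC content and length, the values differed by role. All 5 genes of the small subunits were lower at an unadjusted p under 0.05 and did not overlap between groups, with a median log2 fold change of -0.50. Of the 4 genes of the catalytic and core subunits, 0 were, and their median was 0.07. The 5 are 438 to 875 nt long and the 4 are 1124 to 1886 nt long. Of all genes tested, 8.7% were lower at that threshold. Of those under 1000 nt, 47.2% were lower and 37.1% lay lower without overlap. Uqcr11, a small subunit near the Rieske protein, had 131, 111, 109 and 121 CPM in AM6545 and 218, 153 and 173 CPM in Vehicle. The Vehicle libraries were all higher, and the log2 fold change of AM6545 over Vehicle was -0.61 (SE 0.12; edgeR adjusted p = 0.199). Uqcrq, a small subunit that binds next to cytochrome b, had 99.1, 88.8, 82.9 and 97.6 CPM in AM6545 and 166, 117 and 120.2 CPM in Vehicle (log2 fold change -0.55, SE 0.13; edgeR adjusted p = 0.199). Uqcr10, a small membrane-spanning subunit, had 107, 90.9, 93.6 and 100.4 CPM in AM6545 and 167, 118 and 129 CPM in Vehicle (log2 fold change -0.49, SE 0.12; edgeR adjusted p = 0.199). Uqcrh, the hinge protein by which cytochrome c1 meets cytochrome c, had 91.9, 89.4, 93.6 and 95.2 CPM in AM6545 and 169, 114 and 110.3 CPM in Vehicle (log2 fold change -0.50, SE 0.14; edgeR adjusted p = 0.200). For each of these genes Vehicle replicate B was the highest library and the other Vehicle libraries still lay above every AM6545 library.

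The catalytic and core genes of complex III overlapped between groups. Cyc1, which carries the haem that reduces cytochrome c, had 462, 408, 348 and 647 CPM in AM6545 and 452, 394 and 456 CPM in Vehicle. AM6545 replicate F was the highest library, and the log2 fold change was 0.10 (SE 0.18) with it and -0.10 without it. In that library the transcript Cyc1-202 had 333 CPM, against 106 to 139 CPM in the other 6 libraries. Uqcrc2, a core protein, had 296, 248, 209 and 257 CPM in AM6545 and 209, 209 and 283 CPM in Vehicle, with a log2 fold change of 0.11 (SE 0.14). The remaining pair, Uqcrc1 (core) and Uqcrfs1 (the Rieske iron-sulfur protein), had log2 fold changes of 0.03 and -0.05.

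In complex IV all 17 log2 fold changes were below 0, from -0.72 to -0.14 apart from the incomplete gene-table entry of Cox6a1, as were 15 of 17 without Vehicle replicate B, 11 of 17 after a correction for GC content and length, and all but Cox7b2 with limma-voom. All 10 genes of the widely expressed subunits were lower at an unadjusted p under 0.05 and did not overlap between groups, with a median of -0.56. They are 541 to 921 nt long. Of all genes tested, 8.7% were lower at that threshold. Of those under 1000 nt, 47.2% were lower and 37.1% lay lower without overlap. Cox8a, a small membrane-spanning subunit, had 445, 433, 454 and 483 CPM in AM6545 and 962, 616 and 620.3 CPM in Vehicle. Its log2 fold change was -0.69 (SE 0.15; edgeR adjusted p = 0.199), and the lowest Vehicle library lay above the highest AM6545 library. Cox5b, a zinc-binding subunit on the matrix side, had 191, 185, 198 and 206 CPM in AM6545 and 345, 246 and 259 CPM in Vehicle (log2 fold change -0.54, SE 0.12; edgeR adjusted p = 0.199). Cox6b1, which faces the intermembrane space and helps to join the dimer, had 175, 173, 175 and 188 CPM in AM6545 and 346, 224 and 229 CPM in Vehicle (log2 fold change -0.58, SE 0.14; edgeR adjusted p = 0.199). The AM6545 libraries lay close together for these genes and the Vehicle libraries were spread by replicate B.

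Cox6a1, the widely expressed form of subunit VIa, was read from its transcripts because of the incomplete entry in the gene table. Its coding transcript Cox6a1-201 had 551, 548, 600.3 and 574 CPM in AM6545 and 1181, 725 and 731 CPM in Vehicle. The groups did not overlap, and the log2 fold change was -0.63 (SE 0.18; edgeR adjusted p = 0.559 over all transcripts). The gene table's entry had 5.07, 4.08, 3.10 and 4.21 CPM in AM6545 and 10.5, 7.35 and 6.02 CPM in Vehicle, with a log2 fold change of -0.95 (SE 0.21; edgeR adjusted p = 0.199). That value belongs to the retained-intron transcript.

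The isoforms of complex IV that are typical of other tissues were present at a trace level. Cox4i1, the widely expressed subunit IV, had 596, 602, 611 and 595 CPM in AM6545 and 1116, 700.3 and 707 CPM in Vehicle (log2 fold change -0.48, SE 0.15; edgeR adjusted p = 0.231). It supplied 99.9% of the summed TPM of Cox4i1 and Cox4i2, its lung-type partner, in both groups. Cox6a2, the heart and skeletal muscle form, had 3.24, 3.83, 3.81 and 4.88 CPM in AM6545 and 9.17, 4.93 and 5.35 CPM in Vehicle. Of the 6 tissue-restricted isoforms it was the 1 lower at an unadjusted p under 0.05 (log2 fold change -0.72, SE 0.23; edgeR adjusted p = 0.231), and its highest AM6545 and lowest Vehicle libraries nearly met. Without Vehicle replicate B, Cox6a2 was at -0.38 and no longer past that threshold, while Cox6b2, at -0.64, was past it. With GC content and length corrected for, 0 of the 6 were. Cox6b2, the testis form, had 2.12, 1.79, 2.73 and 1.38 CPM in AM6545 and 1.97, 3.32 and 2.93 CPM in Vehicle. Cox8b, a muscle form, had 2.38, 0.888, 2.07 and 0.576 CPM in AM6545 and 2.01, 2.70 and 1.46 CPM in Vehicle. Both spread widely within each group. Cox7a1, the muscle form of subunit VIIa, had 0.914, 0.834, 0.988 and 0.768 CPM in AM6545 and 1.17, 0.847 and 1.30 CPM in Vehicle. Cox4i2 had 0.562, 0.653, 0.141 and 0.384 CPM in AM6545 and 0.758, 0.605 and 0.812 CPM in Vehicle. Cox7b2 had 0.198, 0.420, 0.894 and 0.423 CPM in AM6545 and 0.929, 0.242 and 0.541 CPM in Vehicle. These 5 isoforms overlapped between groups, with log2 fold changes from -0.71 for Cox4i2 (SE 0.42) to -0.25 for Cox7b2 (SE 0.52). Cox7b2 rested on 4.6 to 23.1 counts per library and Cox4i2 on 3.0 to 18.8, so that their values are imprecise. Whether differences of this size could be detected for them at this depth was not tested.

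Within the subunit VIIa family, the forms differed in their values. Cox7a2, the widely expressed form, had 129, 124, 140.4 and 139.9 CPM in AM6545 and 259, 165 and 174 CPM in Vehicle (log2 fold change -0.58, SE 0.14; edgeR adjusted p = 0.199). Cox7a2l, which helps to join complexes III and IV into supercomplexes, had 103, 114, 111 and 116 CPM in AM6545 and 144, 115 and 106 CPM in Vehicle, and its groups overlapped (log2 fold change -0.14, SE 0.11). Cox7a2 is 652 nt long and Cox7a2l 1076 nt. After the GC and length correction the log2 fold changes were -0.20 for Cox7a2 and 0.02 for Cox7a2l. In TPM, Cox7a2 made up 66.5%, 63.7%, 67.1% and 65.9% of the family in AM6545 and 74.9%, 69.8% and 72.2% in Vehicle. These shares did not overlap between groups. The 4 AM6545 libraries averaged 65.8% ± 1.49 and the 3 Vehicle libraries 72.3% ± 2.58 (SD), and the muscle form Cox7a1 made up 0.715% and 0.614%. No test was made of the share, which was singled out after its values were seen.

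**Figure D4:**
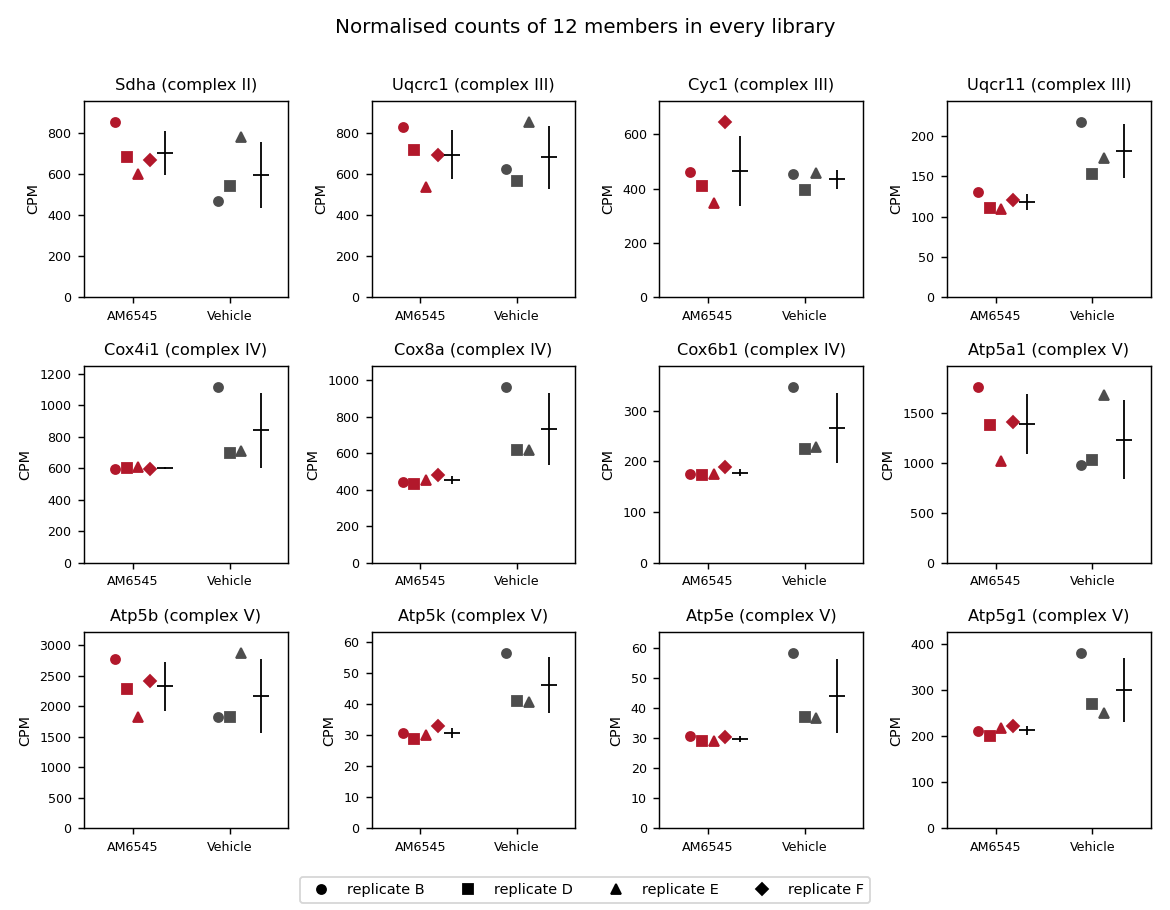
CPM of 12 genes in each library, with a symbol for each replicate letter, AM6545 in red and Vehicle in grey, and a black mark and bar for the group mean and SD. The groups do not overlap for Uqcr11, Cox4i1, Cox8a, Cox6b1, Atp5k, Atp5e and Atp5g1, and they overlap for Sdha, Uqcrc1, Cyc1, Atp5a1 and Atp5b.

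In complex V, too, the values before the GC and length correction differed by role. The genes of the F1 head, where ATP is made, overlapped between groups. Atp5a1, the alpha subunit, had 1763, 1380.1, 1021 and 1412 CPM in AM6545 and 985, 1036 and 1689.5 CPM in Vehicle, with a log2 fold change of 0.17 (SE 0.21). The beta subunit Atp5b had a log2 fold change of 0.10 (SE 0.18). Without Vehicle replicate E the values were 0.46 for Atp5a1 and 0.35 for Atp5b, both higher at an unadjusted p under 0.05 (edgeR adjusted p = 0.112 and 0.163). In contrast, all 4 genes of the small membrane subunits were lower at an unadjusted p under 0.05, did not overlap, and had a median of -0.58. They are 370 to 817 nt long, while Atp5b is 1912 nt and Atp5a1 2480 nt long. Of all genes tested, 8.7% were lower at that threshold. Of those under 1000 nt, 47.2% were lower and 37.1% lay lower without overlap. Atp5k, subunit e at the dimer interface, had 30.8, 28.8, 30.2 and 32.99 CPM in AM6545 and 56.5, 41.1 and 40.7 CPM in Vehicle (log2 fold change -0.59, SE 0.13; edgeR adjusted p = 0.199). Atp5j2, subunit f, had 78.8, 75.6, 70.0 and 80.3 CPM in AM6545 and 141, 96.3 and 104 CPM in Vehicle (log2 fold change -0.58, SE 0.13; edgeR adjusted p = 0.199). Atp5mpl, a small proteolipid, had 31.7, 28.8, 32.4 and 33.4 CPM in AM6545 and 63.0, 41.4 and 40.3 CPM in Vehicle (log2 fold change -0.61, SE 0.15; edgeR adjusted p = 0.199). Vehicle replicate B was again the highest library for each, and the other Vehicle libraries lay above the AM6545 range. Atp5l, subunit g, had 95.3, 83.0, 77.2 and 90.8 CPM in AM6545 and 141, 108 and 109 CPM in Vehicle (log2 fold change -0.47, SE 0.12; edgeR adjusted p = 0.199). Its count is uncertain because a near-identical copy, Gm5426, is counted beside it.

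Between head and membrane, the stalk genes were mixed. Of the 3 genes of the F1 stalk, 2 were lower at an unadjusted p under 0.05, with a median of -0.33. Of the 4 genes of the peripheral stalk 2 were, with a median of -0.26. At that threshold 8.7% of all genes tested were lower, and 47.2% of those under 1000 nt. The lower stalk genes, Atp5d, Atp5e, Atp5h and Atp5j, are 442 to 949 nt long. Atp5c1, Atp5f1 and Atp5o, which were not lower at it, are 834 to 1461 nt long. Atp5s went the other way, with 34.0, 32.6, 33.7 and 34.8 CPM in AM6545 and 31.4, 29.9 and 28.8 CPM in Vehicle. Its groups did not overlap, and the log2 fold change was 0.17 (SE 0.09; edgeR adjusted p = 0.413).

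The c-ring, the rotor through which protons pass, is built from 1 protein encoded by 3 genes, Atp5g1, Atp5g2 and Atp5g3. All 3 were lower at an unadjusted p under 0.05, against 8.7% of all genes tested and 47.2% of those under 1000 nt. Atp5g2 is 701 nt, Atp5g3 718 nt and Atp5g1 1203 nt long. Atp5g1 had 212, 199.9, 218 and 223 CPM in AM6545 and 381, 270.5 and 250.4 CPM in Vehicle (log2 fold change -0.50, SE 0.13; edgeR adjusted p = 0.199). Atp5g2 had 60.0, 56.3, 54.5 and 61.5 CPM in AM6545 and 98.8, 74.1 and 68.0 CPM in Vehicle (log2 fold change -0.47, SE 0.13; edgeR adjusted p = 0.199). Neither overlapped between groups. Atp5g3 had 263, 247, 223 and 281 CPM in AM6545 and 351, 279 and 279 CPM in Vehicle, and AM6545 replicate F lay above the lower Vehicle libraries (log2 fold change -0.26, SE 0.12; edgeR adjusted p = 0.335). In TPM the AM6545 ring transcripts were 41.5% ± 2.17 Atp5g1, 11.3% ± 0.162 Atp5g2 and 47.2% ± 2.14 Atp5g3 (SD, n = 4). The Vehicle shares were 44.6% ± 2.34, 11.9% ± 0.410 and 43.5% ± 2.58 (SD, n = 3).

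The genes also differ in length, and their values followed it. The 47 genes had a median transcript length of 727 nt (360 to 2898 nt), against 2888 nt for all genes tested, and 32 of 47 (68.1%) were shorter than 1000 nt, against 6.02% of all genes tested. Of those 32, 26 were lower at an unadjusted p under 0.05 (81.2%) and all 32 were below 0, with a median log2 fold change of -0.51. Among all 882 genes of that length, 47.2% were lower at the same threshold, 91.7% were below 0 and the median was -0.32. Of the 15 longer genes of complexes II to V, 1 was lower, Atp5g1, and their median was -0.02. Over the 47 genes, which share their libraries, the log2 fold change and log2 length had a Pearson r of 0.79 and a Spearman rho of 0.71. The small subunits are the short genes, so that role and length cannot be told apart by the counts above.

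With the dependence on length and GC content across all genes removed in each library, the median over the 47 genes was 0.00, 23 of 47 were below 0, and 8 were lower at an unadjusted p under 0.05 (17.0%, against 4.49% of all genes). The 8 entries were Uqcrq, Cox5b, Cox6a1, Cox6b1, Cox7b, Cox7c, Atp5g1 and Atp5j2. The Cox6a1 entry holds only the retained-intron transcript, and without it 7 of 46 genes were lower. Of the 9 other widely expressed complex IV genes, 4 were among them, with a median over the 9 of -0.19. Of the 5 genes of the complex III small subunits 1 was, with a median of -0.08, and of the 4 genes of the complex V small membrane subunits 1 was, with a median of -0.16. The medians were then 0.03 for complex II, 0.00 for III, -0.16 for IV and 0.02 for V. Uqcr11, Uqcr10 and Atp5k had corrected values of 0.00, 0.08 and 0.02.

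**Figure D5:**
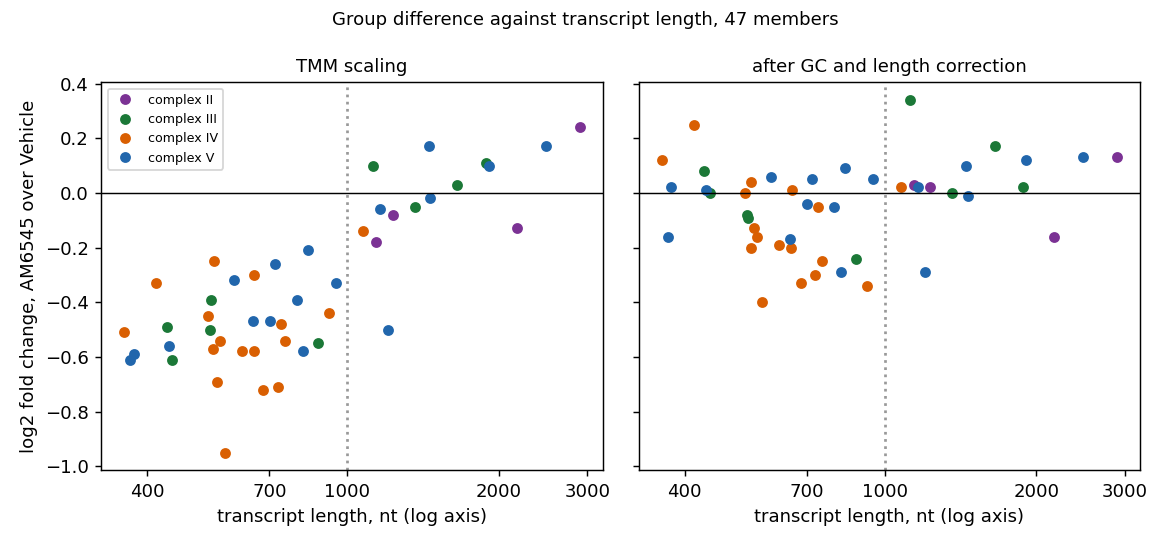
Log2 fold change of AM6545 over Vehicle against transcript length in nt on a log axis for the 47 genes, coloured by complex, with TMM scaling (left) and after the GC and length correction (right), and a dotted line at 1000 nt. On the left the 32 shorter genes all lie below 0 with a median of -0.51 and the 15 longer ones have a median of -0.02, and on the right 19 of the 32 lie below 0 and their median is -0.07.

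In the transcript table, 133 transcripts of the 47 genes were tested and 0 passed an adjusted p under 0.05 in edgeR's quasi-likelihood test, against 0.0177% of 33962 transcripts. At an unadjusted p under 0.05, 37 were lower (27.8%, against 4.5% of all transcripts) and 2 were higher (3.89% of all). The smallest p-values belonged to Atp5j-203, Cox5b-204, Uqcrq-201 and Cox7b-201. Atp5j-203 encodes coupling factor 6 and had 15.3, 14.3, 15.4 and 16.0 CPM in AM6545 and 27.7, 19.9 and 24.96 CPM in Vehicle (log2 fold change -0.66, SE 0.13; edgeR adjusted p = 0.458). Cox5b-204 had 147, 144, 151 and 151 CPM in AM6545 and 256, 191 and 198 CPM in Vehicle (log2 fold change -0.53, SE 0.11; edgeR adjusted p = 0.488). Cox7b-201 had a log2 fold change of -0.48 (SE 0.10; edgeR adjusted p = 0.509). None of the 3 overlapped between groups.

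The transcripts, too, differed by length. Of the 98 tested transcripts under 1000 nt, 33 were lower at an unadjusted p under 0.05 (33.7%, against 9.36% of all transcripts of that length), with a median log2 fold change of -0.41. Of the 35 longer ones, 4 were lower (11.4%, against 3.43% of all), with a median of 0.04. Tested transcripts of both lengths were at hand for 17 genes, and in 11 of them the median log2 fold change of the longer transcripts was the higher one. As examples chosen after their values were seen, Uqcrq-201, of 1521 nt, had -0.52 (SE 0.11) and Uqcrq-203, of 405 nt, had -0.56 (SE 0.18). In contrast, Cox6c-202, of 3038 nt, had -0.14 (SE 0.20) and Cox6c-201, of 503 nt, had -0.55 (SE 0.17). The transcripts that were higher at an unadjusted p under 0.05 were Atp5s-204 (log2 fold change 0.35, SE 0.12) and Atp5a1-202 (1.04, SE 0.38). The groups did not overlap for Atp5s-204 and did for Atp5a1-202.

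Genes that build or surround the complexes were less uniform. By edgeR's quasi-likelihood test none of the pathway genes named here had an adjusted p under 0.05. Of the complex IV assembly factors, 22 of 23 were tested (Pet117 was at 0) and 9 were lower at an unadjusted p under 0.05 (8.7% of all genes tested) and 0 higher, with a median of -0.22, or -0.01 after the GC and length correction. They included the copper chaperone Cox17 (log2 fold change -0.52, SE 0.14, corrected -0.15) and the inner-membrane assembly factor Cox14 (-0.43, SE 0.11, corrected -0.05). Of 6 complex III assembly factors 2 were lower, Uqcc2 (-0.56, SE 0.14, corrected 0.03) and Uqcc3 (-0.30, SE 0.13, corrected -0.01). Of 5 complex V assembly factors 1 was, Fmc1 (-0.45, SE 0.17, corrected 0.11), and of 4 complex II assembly factors 0 were. The lists of electron carriers and exchangers (8 genes, median -0.03) and of citrate cycle enzymes (12 genes, median 0.10) held no gene at that threshold in either direction. Vdac1, the main pore of the outer membrane, had a log2 fold change of 0.13 (SE 0.10), and Idh3a, a subunit of isocitrate dehydrogenase, 0.24 (SE 0.12).

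All of the 6 mitochondrially encoded subunits of complexes III to V were below 0, against 48.6% of all genes tested. Of the 6, 4 were lower at an unadjusted p under 0.05, against 8.7% of all genes tested. The groups did not overlap for 1 of the 6, mt-Co2, and the summed level of the 6 was highest in Vehicle replicate B. The median of the 6 was -0.44, and -0.33 after the GC and length correction. The smallest p-values in that list were those of mt-Atp8 and mt-Co2. A small ATP synthase subunit, mt-Atp8 had 64.0, 64.0, 74.5 and 66.3 CPM in AM6545 and 119, 80.7 and 73.4 CPM in Vehicle, and its groups overlapped (log2 fold change -0.44, SE 0.15; edgeR adjusted p = 0.249; 0.17 after the GC and length correction). A catalytic subunit of complex IV, mt-Co2, had 3426, 3609, 4285 and 3598 CPM in AM6545 and 7425, 4321 and 4382 CPM in Vehicle (log2 fold change -0.53, SE 0.18; edgeR adjusted p = 0.251). With the GC and length correction mt-Co2 was at -0.33. Vehicle replicate B was far above the rest for mt-Co2, and the lowest Vehicle library lay just above the highest AM6545 library. Of 10 transcription regulators of respiratory genes 1 was lower, Yy1 (-0.30, SE 0.13), and 1 higher, Gabpb1, a GABP subunit (0.24, SE 0.10), with a median of 0.09. Of the 38 nuclear-encoded genes of complex I, 30 were lower at an unadjusted p under 0.05 (8.7% of all genes tested, and 47.2% of those under 1000 nt), with a median of -0.41.

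Markers of other cell types moved with the groups in part. The summed level of 6 neuron markers was 7242 to 7549 CPM in AM6545 and 6877 to 6920.0 CPM in Vehicle, without overlap. Only Snap25, the most abundant of them, did not overlap by itself (log2 fold change 0.21, SE 0.10). Of the 6, 3 had values below 0 and 3 above, with a median of 0.03, and 0 passed an unadjusted p under 0.05. The sums of 5 astrocyte markers (1542 to 1882 CPM against 1462 to 1986 CPM), 5 microglia markers (403 to 440.3 CPM against 389 to 514 CPM) and 5 oligodendrocyte markers (16445 to 19575 CPM against 16330 to 22227 CPM) overlapped. Of the microglia markers 2 of 5 were lower at an unadjusted p under 0.05 (8.7% of all genes tested). They were C1qa (log2 fold change -0.47, SE 0.13, corrected -0.14) and Tyrobp (-0.65, SE 0.14, corrected -0.19), and the other 3 had values from -0.04 to 0.07. The sum of 5 choroid plexus and ependyma markers, led by Ttr, was 410.2 to 1933 CPM in AM6545 and 1547 to 2741 CPM in Vehicle, and 0 of them passed that threshold. Markers of oligodendrocyte precursors (2 genes, 27.9 to 34.7 CPM against 31.1 to 38.7 CPM, with Cspg4 lower) and of endothelial and mural cells (5 genes, 16.2 to 20.6 CPM against 14.0 to 19.5 CPM, with none lower or higher at that threshold) were scarce in both groups, and no marker of any list was at 0. The part of cell makeup in the values of the respiratory genes was not tested.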

How the data were processed

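Per the labels' protocols, an RNeasy kit yielded the RNA and the SMARTer Ultra Low Input kit the libraries. The authors deposited estimated counts per gene and per transcript, 1 column per library, and 83.5% of gene values above 0 are not whole. The submitters' processing notes name Salmon 1.5.2 and mm10. Which annotation was counted, and whether strand was used, is not given in the sources used here. Names, lengths and GC content came from GENCODE M21, in which 22148 gene identifiers matched, 22135 of them with a higher deposited version. Promoters came from RefSeq (GRCm38.p6).

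Counts were rounded and tested with edgeR 4.0.16 (limma 3.58.1, R 4.3.3): quasi-likelihood test, robust fit, TMM, filterByExpr, no covariates, Benjamini-Hochberg over all features tested. Standard errors are approximate, from the fold change and the F statistic. CPM are scaled by TMM. DESeq2 1.42.0, limma-voom, other scalings and filters, a GC and length correction, a replicate block and the leaving out of each library were alternatives. On simulated data for the gene comparison (14559 genes), 90.8% of genes changed by 1 on the log2 scale and 97% of those changed by 2 were recovered, with 7.5% false calls. For the transcript comparison (31696 transcripts), 12% and 50% were recovered, with 6.7% false calls. Changes under 1 on the log2 scale, the size of all 47 gene values here (median -0.44), were not simulated. No GC or length trend and no outlying library was simulated either, so these rates do not apply to such changes.

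Genes with values in every library were the 4 of complex II, in each other complex the 4 with the smallest p and the 2 with the highest fold change, and the isoform and c-ring sets. In each pathway list up to 2 genes with the smallest p were named, and of the transcripts the 4 with the smallest p. The genes, lists and tests were chosen with earlier results of these data known.

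In M21, 9 of the 47 genes (Uqcrb, Cox7c, Atp5c1, Atp5g1, Atp5g2, Atp5h, Atp5k, Atp5l and Atp5o) have a copy of at least 95% identity over at least 50% of their length. Overlaps with a gene on the opposite strand concern 12 of them (Uqcrb, Uqcrc2, Cox4i1, Cox5a, Cox6a2, Cox6c, Atp5a1, Atp5d, Atp5f1, Atp5j, Atp5l and Atp5o), and Atp5g2 and Atp5o overlap one on the same strand. Their counts are uncertain to that extent.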

Additional observations from a re-analysis of the deposited data

Results flagged for a closer look

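In the AM6545 group the Cox6b1 value of replicate F, 188 CPM, lay apart from the other 3 libraries, at 173 to 175 CPM. Its gap to the nearest library, relative to the range of the group, was above Dixon's 95% critical value for 4 samples. The lowest Vehicle library, at 224 CPM, lay above it. Of 32 genes compared this way 1 stood out, where chance picks about 1 in 20, or 1.6 of 32.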

How the results depend on the processing

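The count of genes at an adjusted p under 0.05 was 0 in edgeR, 19 with DESeq2 and 18 with limma-voom, and 0 to 23 when each library was left out in turn, the highest without Vehicle replicate E. The count lower at an unadjusted p under 0.05 was 27, 23 to 28 with a library left out, 8 after the GC and length correction and 2 after that correction with the replicate block. The median log2 fold change was -0.44, and -0.49 to -0.26 with a library left out, 0.00 after the correction and 0.01 with correction and block. The cause was not tested. Same-letter correlations of deviations from the group means were -0.34, -0.14 and -0.27, and those of different letters ranged from -0.07 to 0.39. With only 3 letters shared, these values cannot decide whether the replicate letters pair the libraries. With the replicate block alone the counts stayed at 0 and 27, and the median was -0.40. The median level per length over the 47 genes was 461 TPM in Vehicle, and 320 TPM with the longest transcript as length. After the correction 17 of the 47 log2 fold changes went from below to above 0. Among the genes with values in every library these were Sdhb (0.03), Sdhd (0.02), Uqcr11 (0.00), Uqcr10 (0.08), Cox7b2 (0.04), Cox7a2l (0.02), Atp5k (0.02), Cox6b2 (0.00), Cox7a1 (0.25), Cox8b (0.12) and Atp5g3 (0.05), and the others were Cox5a (0.01), Atp5c1 (0.02), Atp5d (0.05), Atp5e (0.01), Atp5h (0.06) and Atp5o (0.09). With correction and block the values were 0.03 for Sdhb, 0.06 for Sdhd, 0.03 for Uqcr11, 0.10 for Uqcr10, 0.07 for Cox7b2, 0.02 for Cox7a2l, 0.01 for Atp5k, 0.21 for Cox6b2, 0.34 for Cox7a1, 0.41 for Cox8b and 0.02 for Atp5g3. Others were Cox7b2 with limma-voom (0.41) and Cyc1 with the block (-0.10). With a library left out, the value ranged from -0.10 to 0.22 for Cyc1 (lowest without AM6545 replicate F), and from -0.18 to 0.07 for Sdhd, -0.67 to 0.35 for Cox7b2 and -0.22 to 0.01 for Cox7a2l (each highest without Vehicle replicate B). No member transcript passed under any alternative run on the transcript table. Depth limits Cox4i2, Cox7b2, Cox7a1 and Cox8b, and a small number of libraries limits all comparisons.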
